A study of Mus musculus with 20 samples.

Results

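The genes described here are 9 transcription factors through which the liver senses hormones, lipids and foreign chemicals. They are the estrogen receptor Esr1, the xenobiotic receptors Nr1i2 (PXR) and Nr1i3 (CAR), the aryl hydrocarbon receptor Ahr, the lipid sensors Ppara and Nr1h3 (LXR alpha), the constitutively active regulators Hnf4a and Rora, and the shared partner Rxra. They were chosen by symbol, with earlier results of these data known, and were 9 of the 25444 loci counted. All 9 lie on autosomes and all 9 passed the filter on low counts, as did 13704 loci in total. Liver RNA was sequenced from 20 mice in 4 groups of 5, which were female (F) and male (M) mice of the inbred strains C57BL/6N (B6) and C3H/HeN (C3). Each library came from the left lateral lobe of 1 mouse aged 20 weeks. No group carried a transgene or received a test agent, and all mice shared a change of diet before collection. Because each sex had its own room, an effect of sex and an effect of the room cannot be told apart. Libraries held between 27370921 and 46835745 counts and were sequenced in 3 pools of 8, 5 and 7 libraries, with each group present in every pool.

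All of these proteins but the aryl hydrocarbon receptor belong to the nuclear receptor family, in which a small lipophilic ligand binds a pocket in the protein and changes the coregulators that it recruits to DNA. PXR, CAR, PPARalpha and LXR alpha bind DNA as heterodimers with RXR alpha, estrogen receptor alpha and HNF4alpha bind as homodimers, and ROR alpha can bind as a monomer. The aryl hydrocarbon receptor is not a nuclear receptor but a basic helix-loop-helix PAS protein, which is held in the cytosol by Hsp90 and pairs with Arnt in the nucleus. In liver these factors control cytochrome P450 enzymes, fatty acid oxidation, bile acid synthesis and lipid transport. Much of their activity is set by ligands and cofactors, which the amount of messenger RNA does not report.

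Esr1 stood apart from the other 8 genes. It was higher in females of both strains, by 2.62-fold in B6 and 2.02-fold in C3, and it was the only gene of the 9 called in any comparison, where called means an adjusted p under 0.001 with an absolute log2 fold change over 0.5. That was 1 of 9 genes in F against M in B6, where 6.34% of all genes tested were called, and 1 of 9 in F against M in C3, where 6.9% were. None of the 9 was called in C3 against B6 in females or in males, where 9.4% and 9.64% of all genes were. At an adjusted p under 0.05 with no limit on fold, 4 of 9 genes passed in F against M in B6, 3 higher and 1 lower in F, where the background was 34.6% in all, 16.2% higher and 18.4% lower. In F against M in C3 4 of 9 passed, 2 higher and 2 lower, where it was 40%, 20.1% and 19.9%. In C3 against B6, 5 of 9 passed in females, 2 higher and 3 lower in C3 (background 32.9%, 17.7% and 15.3%), and 1 of 9 in males, higher in C3 (background 34.5%, with 17% higher and 17.5% lower). The shares of 44.4%, 44.4% and 55.6% lay above the background by less than 3 of 9 genes, and that of 11.1% lay below it. Apart from Esr1, the largest absolute log2 fold change was 0.35 and 0.44 between the sexes of B6 and C3, and 0.54 between the strains in females and 0.34 in males.

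**Figure D1:**
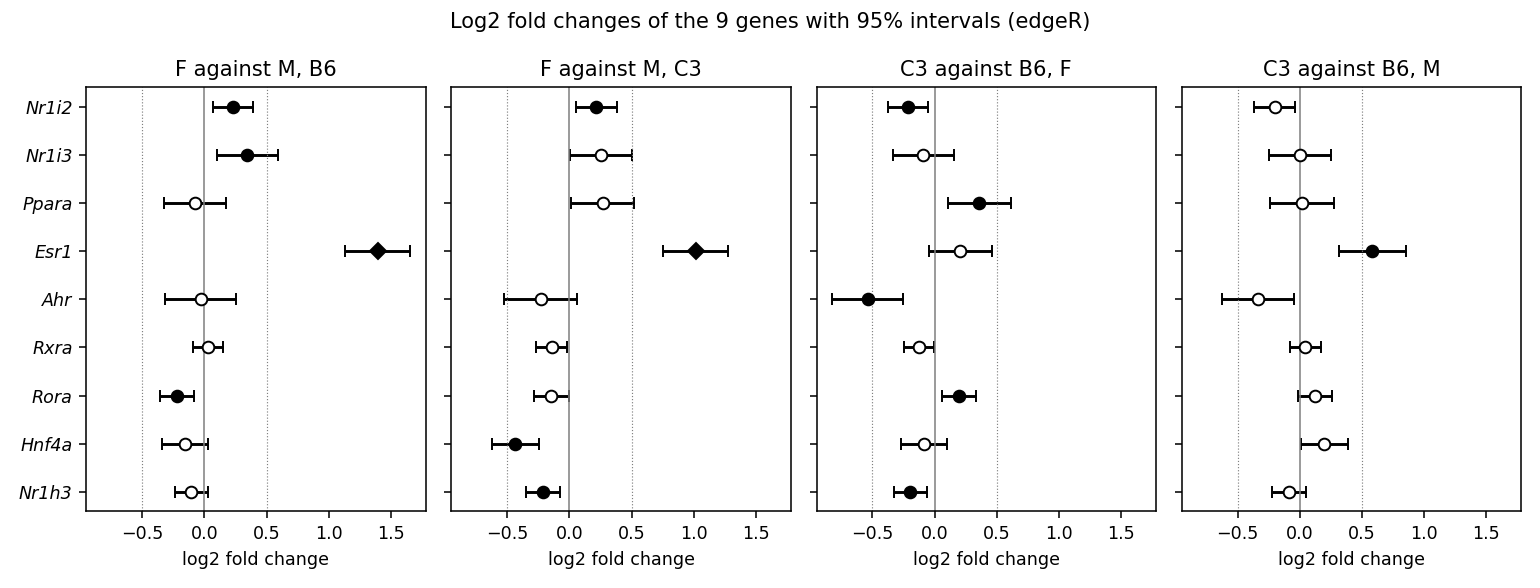
Log2 fold change (x axis) of the 9 genes (rows) in the 4 pairwise comparisons, with 95% intervals from the edgeR fit of group and pool. Filled symbols passed an adjusted p of 0.05, diamonds were called, and dotted lines mark a log2 fold change of 0.5 in either direction. Esr1 lay at 1.39 and 1.01 in the sex comparisons, beyond every other gene.

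Esr1, the receptor through which liver responds to estradiol, lies at chr10:5340908-5734552 on the minus strand of mm9. In the 5 B6 F livers its TMM-normalized level, in counts scaled to the library size (CPM), was 52.8, 50.1, 43.9, 60.9 and 39.1 CPM, and in the 5 B6 M livers it was 18.6, 22.0, 18.6, 20.3 and 14.6 CPM. In C3 it was 59.4, 50.8, 56.8, 58.2 and 59.1 CPM in the F livers and 29.9, 30.1, 21.1, 30.9 and 28.4 CPM in the M livers. Every F liver of either strain lay above every M liver of that strain. Only Esr1 among the 9 genes had groups that did not overlap, in both sex comparisons, against 10.9% of all genes in B6 and 13.1% in C3. None of the 9 was separate between strains, against 12.8% of all genes in females and 15.1% in males. The log2 fold change was 1.39 ± 0.13 (SE, n = 5 and 5) in B6 (adjusted p = 1.32e-07, edgeR) and 1.01 ± 0.13 in C3 (adjusted p = 7.34e-06, edgeR). Each pool held 1 or 2 livers of a group. Within pools 1, 2 and 3 the log2 difference was 1.42, 1.21 and 1.38 in B6 and 1.20, 1.02 and 0.79 in C3. In whole liver, fewer cells of a type and less RNA per cell cannot be told apart.

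Between the strains, Esr1 was higher in C3 than in B6 among males, by 49.8% (log2 0.58 ± 0.13, adjusted p = 0.00155, edgeR). The lowest C3 M liver, at 21.1 CPM, lay just below the highest B6 M liver, at 22.0 CPM, and the other livers were separate. The gene also reached the stricter call without B6 M liver 2 (adjusted p = 0.000821, edgeR) or without C3 M liver 3 (adjusted p = 0.000321, edgeR). Among females the strain difference was 0.20 (95% interval -0.05 to 0.46, adjusted p = 0.213, edgeR), an interval that reaches 0.46 in favour of C3. It passed 0.05 without B6 F liver 4, the highest of its group (adjusted p = 0.0466, and up to 0.448 over the 10 fits that each leave out a liver, edgeR). The sex difference was smaller in C3 than in B6, with an interaction log2 value of -0.38 ± 0.17 (95% interval -0.74 to -0.01), which did not pass the correction over all genes (adjusted p = 0.295, edgeR).

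Of the markers of Kupffer, endothelial and stellate cells, 3 to 5 of 6 passed at 0.05 as higher in females of each strain. Of all genes tested, 16.2% did in B6 and 20.1% in C3. The summed level of 6 Kupffer cell markers was 399.7 to 542.1 CPM in B6 F, 256.2 to 408.7 in B6 M, 270.3 to 414.2 in C3 F and 184.6 to 275.0 in C3 M. That of 6 endothelial markers was 371.8 to 462.4, 311.8 to 365.5, 357.6 to 443.5 and 319.8 to 384.6 CPM in the same order, and that of 6 stellate cell markers was 503.1 to 629.3, 416.0 to 482.4, 416.8 to 452.8 and 351.0 to 392.8 CPM. Of the 6 markers in each list, 5 Kupffer and 5 endothelial markers passed as higher in females of each strain, with 3 stellate markers in B6 and 4 in C3. The cholangiocyte markers summed to 22.6 to 40.5, 33.2 to 43.9, 27.2 to 39.8 and 21.7 to 29.5 CPM. Of the 5 tested, none was higher and 1 lower in females of B6, and 2 were higher and 1 lower in C3. The lymphocyte markers summed to 1.79 to 2.97, 0.949 to 2.94, 1.41 to 2.79 and 0.348 to 0.642 CPM, and of the 4 tested, 0 passed in B6 and 4 were higher in females of C3. Against these, 8 hepatocyte markers summed to between 89060 and 179618 CPM, and none of the markers counted was at 0 in every liver of a group. The part of these cells in the sex and strain differences of the 9 genes was not tested.

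Because Esr1 was the only called gene, the sequences at its annotated starts are shown here, from 250 bases before to 50 bases after each start in RefSeq on GRCm38.p6. The counts pool all transcripts of the gene and do not say which start was used. Both windows are on the plus strand of that build, at chr10:4611739-4612038 and chr10:4709908-4710207, while the older mm9 places the gene on the minus strand. Capitals mark GCGTG on either strand, the core of the dioxin response element that the aryl hydrocarbon receptor binds with Arnt.
Esr1 start 1: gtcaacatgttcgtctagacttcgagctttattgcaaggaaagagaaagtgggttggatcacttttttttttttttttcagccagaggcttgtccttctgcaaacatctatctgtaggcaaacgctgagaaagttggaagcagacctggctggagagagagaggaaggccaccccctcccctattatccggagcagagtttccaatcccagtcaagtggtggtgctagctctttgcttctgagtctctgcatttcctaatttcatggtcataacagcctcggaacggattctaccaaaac
Esr1 start 2: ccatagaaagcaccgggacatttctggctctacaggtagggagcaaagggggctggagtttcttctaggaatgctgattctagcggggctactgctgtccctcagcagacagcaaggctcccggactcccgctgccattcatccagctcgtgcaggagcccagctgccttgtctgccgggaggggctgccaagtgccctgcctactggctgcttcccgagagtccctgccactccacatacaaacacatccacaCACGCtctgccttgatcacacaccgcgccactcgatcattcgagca
Window 1 held 46.3% G and C with 6 CpG dinucleotides, and window 2 held 59.3% with 12. The capitals in window 2 begin at base 5 after the start, on the reverse strand, and 32.4% of all 32851 RefSeq windows of 300 bases held GCGTG at least once. Promoter windows were matched for 8 of the 9 genes, with 12 windows in all. GCGTG was also found 3 times in the Ppara window and once in that of Rora. All motifs were searched on both strands. AGGTCA, the hexamer that most nuclear receptors recognize, occurred in a single window, that of Rxra at chr2:27709042-27709341, at bases -87 and -48. It occurred in 16.3% of all windows. The related AGTTCA, the direct repeats AGGTCANAGGTCA and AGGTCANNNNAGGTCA, which contain AGGTCA, and the estrogen response element GGTCANNNTGACC were in none of the 12 windows, and in 14%, 0.0396%, 0.0152% and 0.07% of all. These matches describe letters and not sites in use.

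**Figure D2:**
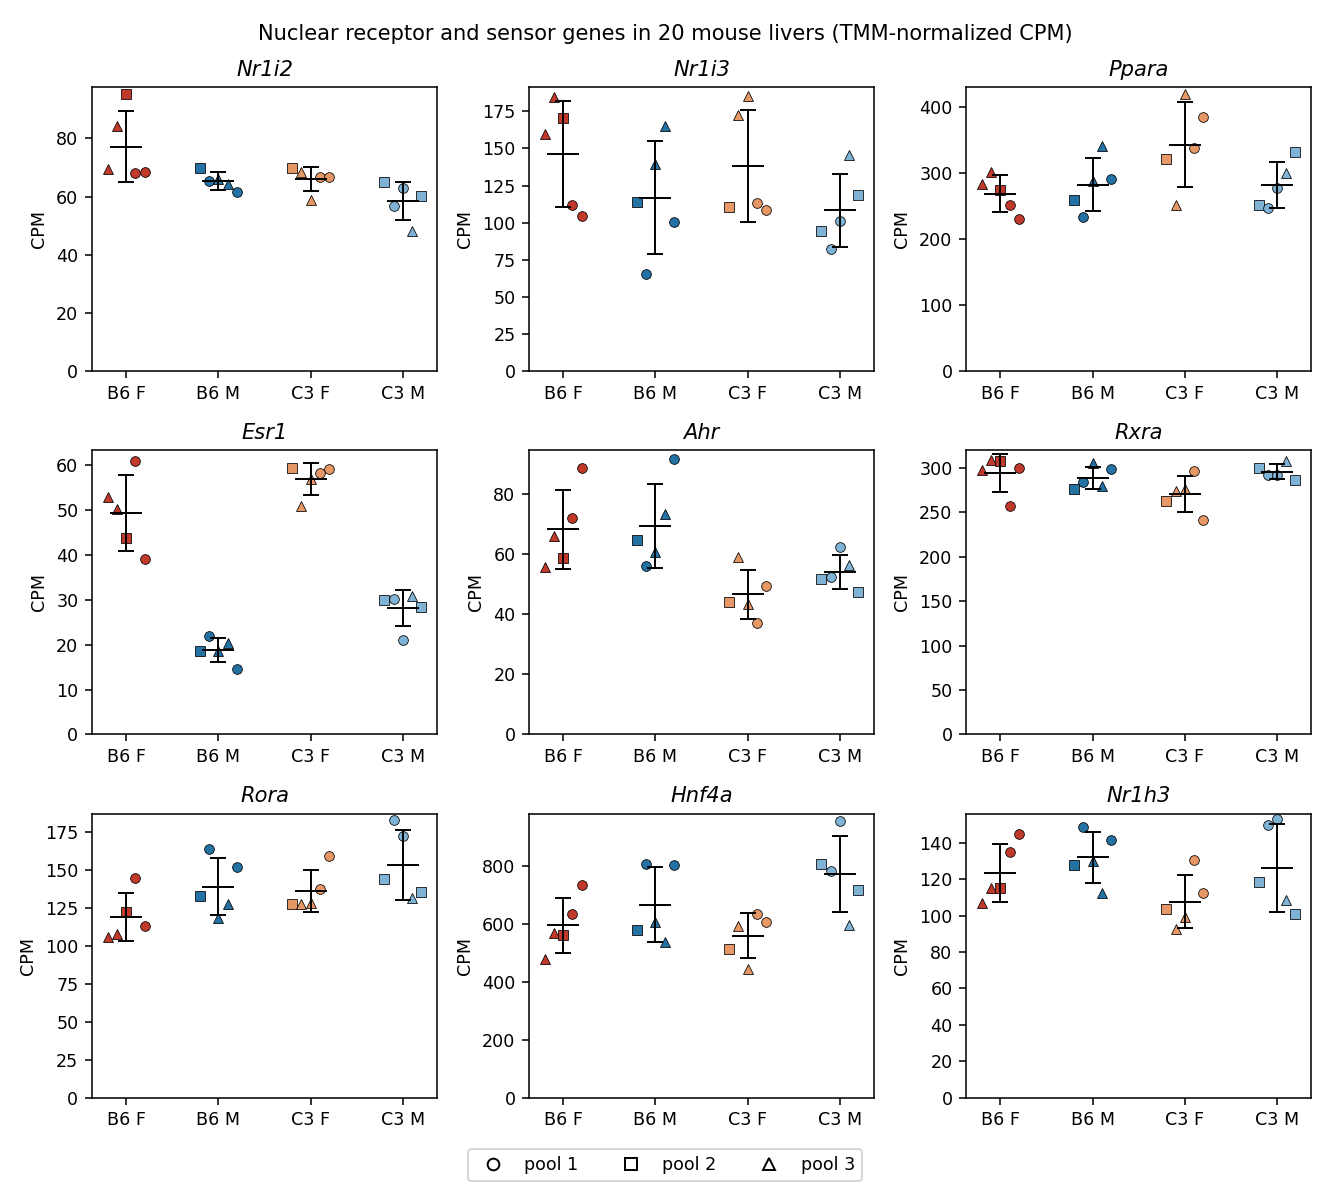
TMM-normalized CPM (y axis, from 0) of the 9 genes in each of the 20 livers, by group. Marker shape gives the sequencing pool, and horizontal bars and whiskers give the mean and SD of 5 livers. Esr1 is the only panel in which the sexes are separate in both strains, and in the Nr1i3 panel the triangles of pool 3 sit above the circles of pool 1.

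Nr1i2 encodes PXR, which responds to drugs, steroids and bile acids and lies at chr16:38248435-38294910 on the minus strand. Its level was 69.6, 84.4, 95.2, 68.0 and 68.5 CPM in B6 F and 69.7, 65.4, 66.0, 64.4 and 61.4 CPM in B6 M. In C3 it was 69.7, 68.5, 59.0, 66.7 and 66.6 CPM in F and 64.8, 56.9, 63.0, 48.2 and 60.1 CPM in M. The groups overlapped throughout, with 2 B6 F livers above all others. Nr1i2 was higher in females by 1.17-fold in B6 (log2 0.23 ± 0.08, adjusted p = 0.0258, edgeR) and 1.16-fold in C3 (0.22 ± 0.08, adjusted p = 0.0363, edgeR), and lower in C3 than in B6 females by 14.0% (log2 -0.22 ± 0.08, adjusted p = 0.0368, edgeR). In males the same strain difference was -0.20 ± 0.08 and missed the threshold (adjusted p = 0.0563, edgeR), which it passed without C3 M liver 3 (0.0198, edgeR) and in 5 of 9 other settings. The B6 sex difference no longer passed without B6 F liver 2 or 3 or B6 M liver 1 or 5 (adjusted p up to 0.121, edgeR) or without the pool term (0.121, edgeR). The C3 sex difference failed in 6 of 10 such fits, without C3 F liver 2, 4 or 5 or C3 M liver 2, 4 or 5 (up to 0.158, edgeR). It also failed in 4 of 9 other settings, with DESeq2 (0.0542), with DESeq2 size factors in edgeR (0.0544), with no filter on low counts (0.0533) and without the pool term (0.239). The strain difference in females failed in 5 of 10 fits, without B6 F liver 2 or 3 or C3 F liver 1, 3 or 4 (up to 0.144, edgeR), without the pool term (0.142) and with only the 2 groups compared (0.0749).

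Nr1i3 encodes CAR, a constitutively active receptor that phenobarbital and bilirubin activate indirectly, and lies at chr1:173144101-173148976 on the plus strand. Its level in B6 was 159.8, 184, 170.4, 112 and 105 CPM in F and 114, 65.6, 139, 165 and 101 CPM in M. In C3 F it was 110.5, 173, 185, 114 and 109 CPM, and in C3 M it was 94.1, 82.5, 101, 145 and 118 CPM. The spread within each group, with an SD of 22.6% to 32.4% of the mean, was the widest of the 9 genes, and all groups overlapped. Nr1i3 was higher in B6 females than males by 1.27-fold (log2 0.35 ± 0.12, adjusted p = 0.0280, edgeR). The difference in C3 was 0.26 ± 0.12 and did not pass (adjusted p = 0.0920, edgeR), although it did without C3 F liver 1 (0.0385, edgeR) and in 4 of 9 other settings. These were the replicate block (log2 0.28, adjusted p = 0.0332, edgeR), limma on log2(TPM + 1) (0.0214) or log2(TPM + 0.1) (0.0208) and upper-quartile normalization (0.0430, edgeR). The interaction value was -0.09 (95% interval -0.44 to 0.26). The B6 difference no longer passed without B6 F liver 3 or B6 M liver 2 or 3 (adjusted p up to 0.130, edgeR) and without the pool term (0.401, edgeR). Between strains, the difference was -0.09 ± 0.12 in females and -0.00 ± 0.12 in males.

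The level of Nr1i3 followed the sequencing pool. It averaged 98.6 CPM in the 8 livers of pool 1 (65.6 to 114), 121 in the 5 of pool 2 (94.1 to 170.4) and 165 in the 7 of pool 3 (139 to 185). Pools 1 and 3 did not overlap, and their means differed by 1.67-fold (adjusted p of the pool term = 1.19e-05, edgeR). Hnf4a, Nr1h3 and Rora went the other way, with means of 744, 635 and 546 CPM for Hnf4a, 139, 113 and 109 for Nr1h3 and 153, 132 and 121 for Rora in pools 1, 2 and 3. Their pool terms had adjusted p = 0.000275, 1.75e-05 and 0.000144 (edgeR), and with Nr1i2 (0.0444) 5 of the 9 genes passed, or 55.6%, against 60.1% of all genes tested. All tests of sex and strain here hold the pool fixed. In each of the 14 sex or strain differences that passed at 0.05, the sign was the same within all 3 pools. Each pool held only 1 or 2 livers of a group. The 14 were also chosen by the fit of these same livers, so the shared sign is a description and no separate test.

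Ahr, which binds dioxins, polycyclic hydrocarbons and indoles, lies at chr12:36182651-36219661 on the minus strand. Its level was 55.7, 66.1, 58.9, 72.2 and 88.7 CPM in B6 F and 64.9, 56.2, 60.9, 73.4 and 91.9 CPM in B6 M. In C3 it was lower, at 44.1, 59.0, 43.5, 37.3 and 49.5 CPM in F and 51.8, 52.4, 62.6, 56.5 and 47.5 CPM in M. In females 4 of 5 C3 livers lay below every B6 liver. Ahr was lower in C3 than in B6 females by 31.1% (log2 -0.54 ± 0.14, adjusted p = 0.00513, edgeR), and the within-pool log2 differences were -0.89, -0.41 and -0.26. This difference kept an adjusted p of at most 0.0183 (edgeR) whichever liver was left out, and met the stricter call with DESeq2 (adjusted p = 0.000712). In males the difference was -0.34 ± 0.14 (95% interval -0.63 to -0.05, adjusted p = 0.0681, edgeR), which passed 0.05 without B6 M liver 2 (adjusted p = 0.0194, and up to 0.212 over the 10 fits, edgeR) and with upper-quartile normalization (0.0436, edgeR). Sex differences were -0.03 ± 0.14 in B6 and -0.23 ± 0.14 in C3 and did not pass (adjusted p = 0.887 and 0.192, edgeR).

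Ppara, the receptor for fatty acids and fibrates that drives fatty acid oxidation in fasting, lies at chr15:85565994-85637281 on the plus strand. Its level in females was 284, 302, 275, 252 and 231 CPM in B6 and 321, 251, 420.4, 337 and 384 CPM in C3. In males it was 259.98, 234, 287, 340.2 and 291 CPM in B6 and 251, 247, 278, 301 and 332 CPM in C3. The C3 F livers were the most spread, and 4 of the 5 lay above all B6 F livers. Ppara was higher in C3 than in B6 females by 1.28-fold (log2 0.36 ± 0.12, adjusted p = 0.0270, edgeR). This difference no longer passed without B6 F liver 4 or 5 or C3 F liver 3, 4 or 5 (adjusted p up to 0.0904, edgeR), nor in 4 of 9 other settings, with limma on log2(TPM + 1) (0.105) or log2(TPM + 0.1) (0.106), without the pool term (0.0697, edgeR) or with only the 2 groups compared (0.0805, edgeR). In males the difference was 0.02 (95% interval -0.24 to 0.28). Sex differences were -0.07 ± 0.12 in B6 and 0.27 ± 0.12 in C3 (adjusted p = 0.668 and 0.0880, edgeR), and the latter passed without C3 F liver 2 (the lowest of its group) or C3 M liver 5 (the highest), with adjusted p from 0.00417 to 0.231 over the 10 fits (edgeR). It also passed in 3 of 9 other settings, with limma on either TPM scale (0.0293 and 0.0282) and with upper-quartile normalization (0.0400, edgeR).

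Nr1h3, the oxysterol receptor that drives cholesterol export and lipogenesis, lies at chr2:91024218-91035273 on the minus strand. It stood at 107, 115, 115, 135 and 145 CPM in B6 F and 128, 149, 130.0, 112 and 141 CPM in B6 M. In C3 it stood at 104, 92.7, 99.2, 130.2 and 112 CPM in F and 119, 149.7, 153, 108 and 101 CPM in M. All groups overlapped. Nr1h3 was lower in C3 females than in C3 males by 13.6% (log2 -0.21 ± 0.06, adjusted p = 0.0144, edgeR) and lower in C3 than in B6 females by 12.7% (-0.20 ± 0.06, adjusted p = 0.0225, edgeR). The first no longer passed without C3 M liver 3 (adjusted p = 0.0547, edgeR), nor in 4 of 9 other settings. In these its adjusted p was 0.202 with limma on log2(TPM + 1) and on log2(TPM + 0.1), where the log2 difference was -0.10, 0.0858 with upper-quartile normalization (edgeR) and 0.227 without the pool term (edgeR). The second failed without B6 F liver 2 or 3 or C3 F liver 2 or 5 (up to 0.0709, edgeR) and without the pool term (0.361, edgeR). In B6 the sex difference was -0.10 ± 0.06 (adjusted p = 0.216, edgeR), and among males the strain difference was -0.09 ± 0.06 (adjusted p = 0.308, edgeR).

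Hnf4a, which maintains hepatocyte identity and controls genes of lipoproteins, clotting and bile acid synthesis, lies at chr2:163332593-163398643 on the plus strand. In C3 its level was 514, 591, 445, 633 and 608 CPM in F and 805, 781, 954, 596 and 716 CPM in M. In B6 it was 478, 569, 562, 635 and 732 CPM in F and 578, 805, 606, 536 and 804 CPM in M. In C3, 4 of 5 M livers lay above every F liver. Hnf4a was lower in C3 females than in C3 males by 26.0% (log2 -0.44 ± 0.09, adjusted p = 0.00121, edgeR), and lower within each pool, by log2 values of -0.48, -0.56 and -0.22. The adjusted p was at most 0.00573 (edgeR) whichever liver was left out, and without C3 F liver 2 the gene was called (log2 -0.51, adjusted p = 0.000117, edgeR). In B6 the sex difference was -0.15 ± 0.09 (95% interval -0.34 to 0.03, adjusted p = 0.185, edgeR). The difference between the strains' sex differences was -0.28 ± 0.13 and did not pass (adjusted p = 0.274, edgeR), so Hnf4a was not shown to differ between the strains in its response to sex. Strain differences were -0.09 ± 0.09 in females and 0.19 ± 0.09 in males, neither of which passed (adjusted p = 0.491 and 0.102, edgeR).

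Rora, which activates clock and lipid genes through the response elements that REV-ERB proteins repress, lies at chr9:68501593-69236053 on the plus strand. Its span, from start to end, overlaps that of the locus 9530091C08Rik on the same strand. Reads that overlapped counted features of both loci were not counted, and whether there were any was not measured. Its level was 106, 108, 122, 144 and 113 CPM in B6 F and 133, 164, 118, 127 and 152 CPM in B6 M. In C3 it was 127, 128, 128, 138 and 159 CPM in F and 144, 183, 172, 131 and 135 CPM in M. Groups overlapped in all comparisons. Rora was lower in B6 females than in B6 males by 14.2% (log2 -0.22 ± 0.07, adjusted p = 0.0144, edgeR) and higher in C3 than in B6 females by 1.15-fold (0.20 ± 0.07, adjusted p = 0.0270, edgeR). The first passed whichever liver was left out (adjusted p at most 0.0386, edgeR) and failed in 4 of 9 other settings (up to 0.234). The second failed without B6 F liver 1 or 5 or C3 F liver 2, 3 or 5 (up to 0.0780, edgeR) and in 5 of 9 other settings (up to 0.311). The C3 sex difference was -0.15 ± 0.07 (adjusted p = 0.0867, edgeR), and the strain difference among males was 0.12 ± 0.07 (adjusted p = 0.163, edgeR).

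Rxra, the heterodimer partner of PXR, CAR, PPARalpha and LXR alpha, lies at chr2:27532721-27618839 on the plus strand and varied least over the 20 livers. It stood at 298, 309, 308, 257 and 300.4 CPM in B6 F, and at 276, 284, 306, 279 and 298 CPM in B6 M. In C3 it stood at 263, 274, 276, 297 and 241 CPM in F and 300.04, 292, 292, 308 and 287 CPM in M. The highest and lowest of the 20 livers differed by 1.28-fold, against 4.18-fold for Esr1 and 2.82-fold for Nr1i3. Its groups overlapped in every comparison. No difference passed in the edgeR fit used throughout, and the largest was -0.14 between the C3 sexes (95% interval -0.26 to -0.02, adjusted p = 0.0668, edgeR), which passed without C3 F liver 4 (adjusted p = 0.0203, and up to 0.184 over the 10 fits, edgeR), with DESeq2 (log2 -0.16, adjusted p = 0.0316) and with DESeq2 size factors in edgeR (0.0486). In females the strain difference was -0.12 (95% interval -0.25 to -0.00, adjusted p = 0.114, edgeR), which passed without B6 F liver 4 or C3 F liver 4 (adjusted p = 0.0282 and 0.0311, and up to 0.294 over the 10 fits, edgeR). With limma on log2(TPM + 1) or log2(TPM + 0.1), the strain difference in females passed at a log2 value of -0.19 (adjusted p = 0.00807 and 0.0086), as did the B6 sex difference at 0.14 (adjusted p = 0.0389 and 0.0406).

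Whether the sex difference depended on strain was tested directly by the interaction of sex and strain. None of the 9 genes passed at 0.05 (edgeR), where 2.96% of all genes tested did, and none was called, where 0.401% were. At an unadjusted p under 0.05 there were 2, Esr1 and Hnf4a, and no alternative test or left-out liver brought any of the 9 past the adjusted threshold. Interaction values ranged from -0.38 for Esr1 to 0.34 for Ppara on the log2 scale.

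Levels of different genes were compared on the deposited TPM, which scale transcripts by gene length. Hnf4a was the most abundant in each group, with mean TPM of 283 ± 45.2 (SD, n = 5) in B6 F, 291 ± 51.5 in B6 M, 253 ± 31.5 in C3 F and 321 ± 52.4 in C3 M. Nr1i3 followed, then Nr1h3, Rxra, Ppara and Nr1i2 in that order in all 4 groups. The ranges of Hnf4a and Nr1i3 overlapped in every group but C3 M, and those of Nr1h3 and Rxra in every group but B6 M. Nr1i3 and Nr1h3 overlapped in B6 M and C3 M, and Rxra and Ppara in C3 F. Ppara and Nr1i2 overlapped in B6 F and in no other group. Ahr stood above Rora in B6 (27.6 ± 5.43 against 21.3 ± 2.22 TPM in F) and below it in C3 (18.0 ± 3.61 against 23.3 ± 2.26 TPM in F), and their ranges overlapped in all groups. Esr1 was the least abundant in each group, at 12.5 ± 2.02 TPM in B6 F, 4.39 ± 0.68 in B6 M, 13.7 ± 0.73 in C3 F and 6.24 ± 0.92 in C3 M. Its range overlapped that of the gene above it only in C3 F, where that gene was Ahr.

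**Figure D3:**
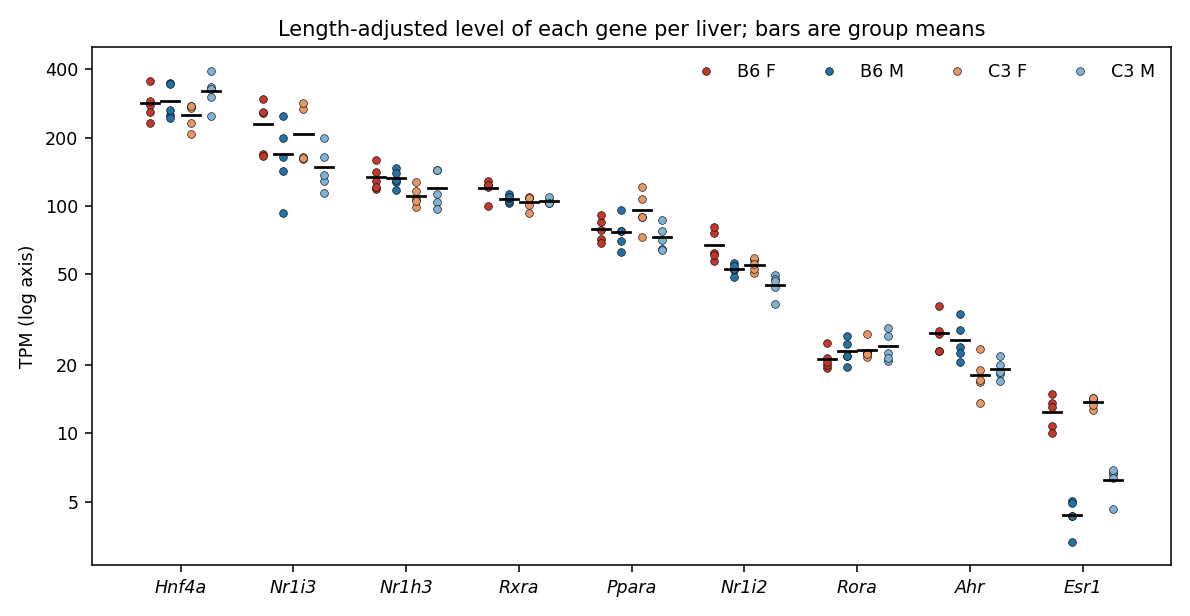
TPM (y axis, log scale) of the 9 genes in 20 livers, ordered by mean level, with colour for the group and a bar at each group mean. Hnf4a sits at the top and Esr1 at the bottom, where the M groups of both strains lie below the F groups.

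The genes whose log2 CPM was most like that of each of the 9 were sought over the 20 libraries among 13258 autosomal genes. These correlations are descriptions, and their points share groups and pools. For Esr1 they were Zfp820 (r = 0.97) and Naip2 (r = 0.97), and with group and pool removed r was 0.76 and 0.71. For Hnf4a they were Mtf1 (0.97) and Prpf4b (0.95), with 0.89 and 0.81 after removal, and for Nr1i3 they were Aph1a (0.94) and Pbld1 (0.94), with 0.73 and 0.70. The others were Selm (0.85) and Efnb2 (0.79) for Nr1i2, Atm (0.81) and Rab36 (0.76) for Ppara, and Zfp493 (0.88) and Fam214a (0.87) for Ahr. Rora was most like Mrpl1 (0.93) and Eea1 (0.91), Nr1h3 like Azgp1 (0.91) and Babam1 (0.89), and Rxra like Spef1 (0.79) and Cyp2d12 (0.74). Once group and pool were removed, Efnb2 kept an r of only 0.13 with Nr1i2, and Selm kept 0.68. Azgp1 and Babam1 kept 0.49 and 0.59 with Nr1h3, and Mrpl1 and Eea1 kept 0.68 and 0.67 with Rora. Spef1 kept 0.79 and Cyp2d12 kept 0.57 with Rxra. Atm and Rab36 kept 0.79 and 0.70 with Ppara, and Zfp493 and Fam214a kept 0.81 and 0.69 with Ahr.

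Of the other 41 nuclear receptors listed, 32 had enough counts to test. Of all genes tested, 34.6% passed at 0.05 in F against M in B6 (16.2% higher, 18.4% lower). In C3 40% did (20.1% and 19.9%). In C3 against B6, 32.9% passed in females (17.7% higher, 15.3% lower) and 34.5% in males (17% and 17.5%). In F against M, 8 rose and 4 fell at 0.05 in B6, and 9 rose and none fell in C3, with median log2 fold changes of 0.05 and 0.21 against 0.00 and 0.01 for all genes tested. In C3 against B6, 3 rose and 4 fell in females and 5 rose and 4 fell in males, with medians of 0.06 and -0.03. Pparg, the adipogenic receptor, differed most between strains. It was 7.51, 6.15, 15.0, 9.13 and 5.28 CPM in B6 F and 18.9, 25.1, 15.0, 17.1 and 15.8 CPM in B6 M, but 0.27 to 0.605 CPM in C3 F and 0.116 to 0.214 CPM in C3 M, where each library held only 3 to 9 counts. No B6 liver overlapped a C3 liver, and the log2 fold change was -4.29 ± 0.26 in females (adjusted p = 3.48e-10, edgeR) and -6.82 ± 0.30 in males (adjusted p = 3.24e-12, edgeR). Within B6, Pparg was lower in females than in males (-1.15 ± 0.19, adjusted p = 0.000154, edgeR).

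Female levels of the retinoid receptor Rxrg were above male levels in both strains (log2 0.87 and 0.88). Without the pool term the B6 difference no longer passed 0.05 (adjusted p = 0.0599, edgeR). In B6 females the repressor Nr1d2 (REV-ERB beta) was above the male level by 0.82, and in C3 females the orphan receptor Esrrg by 1.56. Hnf4g, close in sequence to Hnf4a, was called in C3 (adjusted p = 0.000584, edgeR) at 0.288 to 1.05 CPM in F against 0 to 0.173 CPM, or at most 6 counts, in M. Nr0b2 (SHP), the corepressor induced by bile acids, ranged from 9.30 to 72.9 CPM and did not pass in any comparison. Among 17 tested of 19 listed partners and coregulators, 3 passed in F against M in B6 and 7 in C3, 6 in C3 against B6 in females and 3 in males. The shares of all genes tested were 34.6%, 40%, 32.9% and 34.5% in the same order. The calls were 2 chaperones of the aryl hydrocarbon receptor, Hsp90aa1 (log2 -1.38 ± 0.24, adjusted p = 0.000259, edgeR) and Hsp90ab1 (-0.58 ± 0.12, adjusted p = 0.00088, edgeR), both lower in C3 females than in C3 males. Without the pool term Hsp90ab1 no longer passed 0.05 (adjusted p = 0.0515, edgeR).

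Target genes of the sensors, listed from textbook knowledge, did not follow a single pattern. Of 22 targets of CAR and PXR, 8 rose and 6 fell in F against M in B6, and 8 rose and 3 fell in C3, with medians of -0.03 and 0.08. Of all genes tested, 16.2% rose and 18.4% fell in B6, and 20.1% and 19.9% in C3. Cyp2b9 was 535 to 749 CPM in B6 F and 516 to 695 CPM in C3 F, against 0.398 to 12.7 CPM and 0.356 to 1.01 CPM in the M livers. Cyp2b13 was 204 to 409 and 111 to 221 CPM in the same F groups and no more than 0.288 CPM, or 9 counts, in any M liver. Cyp2b10, the classical CAR target, was higher in females in B6 (log2 2.34 ± 0.39, adjusted p = 0.000189, edgeR) and in C3 (1.57 ± 0.38, adjusted p = 0.00372, edgeR). Reads that matched several genes were not counted, and how many were lost for these genes of the same family was not measured. Cyp3a11, the classical PXR target, was lower in B6 females (-0.71 ± 0.22, adjusted p = 0.0171, edgeR), a difference that no longer passed without B6 F liver 1 or 2 (up to 0.0551, edgeR) or without the pool term (0.0718, edgeR). Its value in C3 was 0.11 ± 0.22.

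Lower in females of both strains was Cyp2c29 (log2 -0.66 in B6 and -1.13 in C3), as was the esterase Ces2a in B6 (-0.61) and Cyp2c55 in C3 (-1.57). Between the strains, 4 of the 22 targets rose and 10 fell in C3 against B6 in females, and 4 rose and 7 fell in males, with medians of -0.24 and -0.29. Of all genes tested, 17.7% rose and 15.3% fell in females, and 17% and 17.5% in males. Cyp3a13 was 126 to 194 CPM in B6 F and 114 to 158 CPM in B6 M, against 23.4 to 37.8 and 26.9 to 39.8 CPM in C3, a log2 difference of -2.28 in females and -2.04 in males (adjusted p = 1.24e-11 and 5.87e-11, edgeR). The Cyp2c50 value in females (-0.93) and that of Cyp2a5 in males (-1.42) were also calls in that direction. The efflux pump Abcb1a was higher in C3 females (1.36), and Cyp3a25 in C3 of both sexes (0.91 and 0.69).

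Of 25 targets of PPARalpha, 3 rose and 9 fell in F against M in B6, where 16.2% and 18.4% of all genes tested did. In C3, 9 rose and 2 fell, where 20.1% and 19.9% did. The medians were -0.10 in B6 and 0.06 in C3. The difference of the sex effects was tested for each target, and 8 of 25 passed, all higher in C3, against 1.98% of all genes in that direction. The called ones were Cyp4a10, a fatty acid hydroxylase (interaction log2 3.71 ± 0.56, adjusted p = 0.000854, edgeR), Vnn1, a pantetheinase (3.41 ± 0.46, adjusted p = 0.000255, edgeR), and the fatty acid transporter Cd36 (2.14 ± 0.30, adjusted p = 0.000430, edgeR), which was chosen after its values were seen. Vnn1 was 14.9, 5.16, 20.3, 20.2 and 15.0 CPM in C3 F against 1.39, 1.15, 1.26, 1.19 and 1.57 CPM in C3 M. In B6 it was 39.0 to 80.2 CPM in F and 30.3 to 77.4 CPM in M. Vnn1 was thus separate between the sexes of C3 and overlapped between those of B6. Ppara itself had an interaction value of 0.34 ± 0.17 (adjusted p = 0.345, edgeR).

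**Figure D4:**
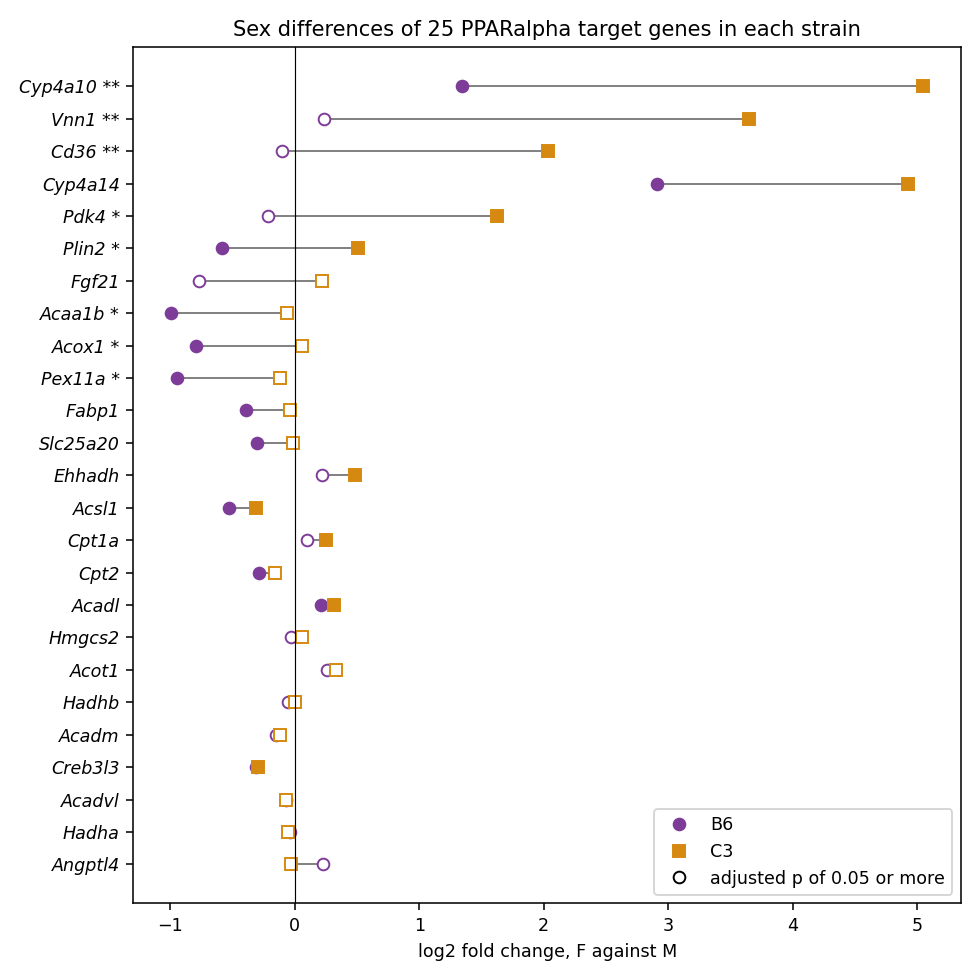
Log2 fold change of F against M (x axis) for 25 PPARalpha target genes (rows) in B6 (circles) and C3 (squares), where open symbols had an adjusted p of 0.05 or more. A single asterisk marks an interaction of sex and strain with adjusted p under 0.05, and a double asterisk a called interaction. For the 8 marked genes the C3 square lies to the right of the B6 circle, as for Vnn1 at 3.65 against 0.24.

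Cyp4a14, of the same family as Cyp4a10, was higher in females by 2.91 ± 0.63 in B6 (adjusted p = 0.0017, edgeR) and 4.92 ± 0.76 in C3 (adjusted p = 8.95e-05, edgeR), and its C3 against B6 values were -3.90 in females and -5.92 in males. The B6 M livers were widely spread, at 359, 54.2, 8.16, 129 and 20.3 CPM, against 476 to 858 CPM in B6 F. In C3 it was 24.7 to 65.3 CPM in F and 1.14 to 2.70 CPM in M. In B6 females the peroxisomal genes Acaa1b (-0.99) and Pex11a (-0.94) were below the male level. Between strains, 9 of the 25 rose and 6 fell in females, and 2 rose and 12 fell in males. Of all genes tested, 17.7% and 15.3% did in females, and 17% and 17.5% in males. The fasting hormone gene Fgf21 was called higher in C3 of both sexes (4.32 ± 0.45 and 3.34 ± 0.42, adjusted p = 4.59e-07 and 5.73e-06, edgeR), as was Fabp1, a fatty acid carrier, in females (0.54). Fgf21 was low in B6, at 0.163 to 0.922 CPM in F (6 to 34 counts) and 0.318 to 1.80 CPM in M (11 to 56 counts). In C3 it was 4.01 to 17.0 CPM in F and 5.21 to 18.8 CPM in M. The C3 against B6 values of Vnn1 were -1.85 in females and -5.26 in males.

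**Figure D5:**
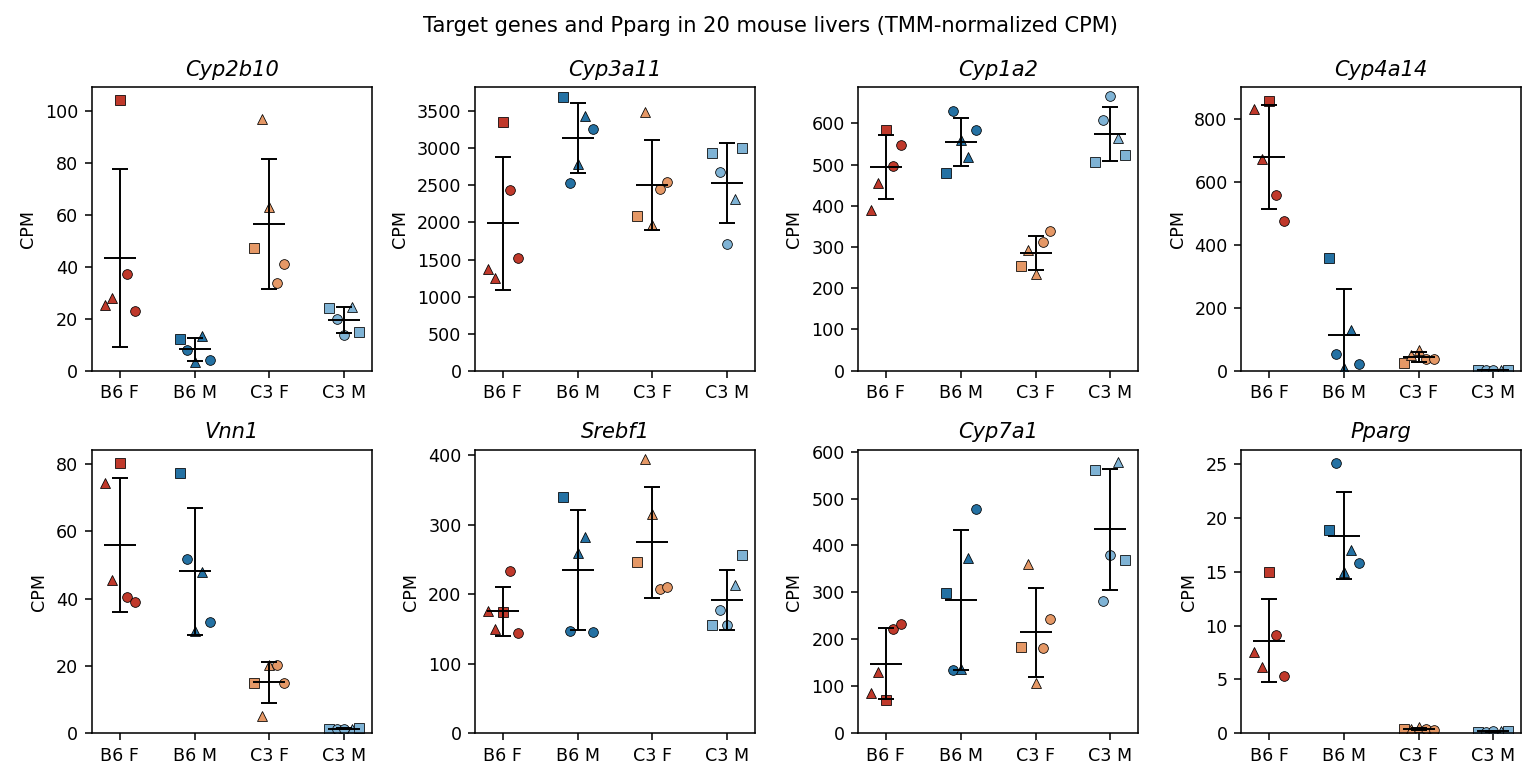
TMM-normalized CPM (y axis, from 0) of 7 target genes and Pparg in 20 livers by group, with circles, squares and triangles for pools 1, 2 and 3 and bars for the mean and SD of 5 livers. Cyp1a2 is lower in C3 F than in the other groups, and Pparg and Vnn1 are close to 0 in C3 M.

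Of 9 targets of the aryl hydrocarbon receptor, 7 were tested. Cyp1a2, the main constitutive target in liver, was 254, 292, 235, 311 and 338 CPM in C3 F and 506, 608, 666, 565 and 524 CPM in C3 M. In B6 it was 389 to 585 CPM in F and 480 to 630 CPM in M. All C3 F livers lay below all other livers. Cyp1a2 was lower in C3 females than in C3 males by 50.0% (SE 0.09 on the log2 scale, adjusted p = 2.06e-07, edgeR), and its log2 fold change was -0.79 ± 0.09 in C3 against B6 females (adjusted p = 1.62e-06, edgeR), and the interaction passed at 0.05 (-0.84 ± 0.13, adjusted p = 0.00101, edgeR), as 0.978% of all genes did in that direction. Nqo1, a quinone reductase, was higher in females of both strains (0.90 and 1.53) and lower in C3 than in B6 males (-1.21), while Ugt1a6a, a glucuronosyltransferase, was lower in females (-0.71 and -0.76). In all, 2 of 7 passed in F against M in B6 and 3 in C3, where 34.6% and 40% of all genes tested did. Between strains, 3 of 7 passed in each sex, all lower in C3. Of all genes tested, 15.3% were lower in C3 in females and 17.5% in males.

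Of 13 LXR targets, 7 passed in F against M in B6 and 6 in C3, 9 in C3 against B6 in females and 5 in males. The shares of all genes tested were 34.6%, 40%, 32.9% and 34.5% in that order. The sterol transporter Abcg5 was higher in females of both strains (log2 0.83 and 0.64), and the cholesterol exporter Abca1 was higher in C3 than in B6 females (0.60 ± 0.05, adjusted p = 7.9e-08, edgeR). Lpl, lipoprotein lipase, was 9.39, 13.5, 9.96, 14.7 and 13.8 CPM in C3 F against 61.2, 50.2, 40.4, 73.4 and 63.3 CPM in C3 M, and 13.9 to 16.1 against 17.1 to 24.9 CPM in B6. The sexes were separate in both strains, and the interaction was called (-1.80 ± 0.21, adjusted p = 5.97e-05, edgeR). Srebf1, the lipogenic regulator, was higher in C3 than in B6 females (0.59 ± 0.20, adjusted p = 0.0301, edgeR), but not without B6 F liver 1, 2, 3 or 5 or C3 F liver 2 or 3 (up to 0.0965, edgeR) or without the pool term (0.0665, edgeR). Cyp7a1, the rate-limiting enzyme of bile acid synthesis, was lower in C3 females than in C3 males (-1.06 ± 0.41, adjusted p = 0.047, edgeR). That difference failed in 8 of the 10 fits, all but those without C3 F liver 2 or C3 M liver 2 (up to 0.167, edgeR), and in 4 of 9 other settings (up to 0.0798). Mean Cyp7a1 was 148 CPM in B6 F and 284 in B6 M, against 215 in C3 F and 434 in C3 M. The B6 sex difference did not pass in the main fit. It passed without B6 F liver 5 (0.0444), B6 M liver 2 (0.0252) or B6 M liver 3 (0.0406, edgeR). With the replicate block it also passed (log2 -0.92, adjusted p = 0.0496, edgeR).

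Of 16 targets of HNF4alpha, 2 rose and 7 fell in F against M in B6, and 1 rose and 5 fell in C3. In C3 against B6, 5 rose and 2 fell in females and 3 rose and 1 fell in males. Of all genes tested, 16.2% rose and 18.4% fell in females of B6, and 20.1% and 19.9% in females of C3. In C3 against B6, 17.7% rose and 15.3% fell in females, and 17% and 17.5% in males. The apolipoprotein genes Apoa4 (log2 2.40 and 1.76) and Apoa1 (0.84 and 0.71) were called higher in C3 females and males, and the bile acid hydroxylase Cyp8b1 was called lower in B6 females than in B6 males (-0.76). Of 10 targets of ROR alpha, 5 passed in F against M in B6 and 4 in C3, where 34.6% and 40% of all genes did. In C3 against B6, 2 passed in each sex, where 32.9% of all genes did in females and 34.5% in males. Elovl3, a fatty acid elongase, was 4.45 to 13.4 CPM in B6 F against 534 to 1262 CPM in B6 M, and 1.75 to 5.95 against 337 to 650 CPM in C3. Cyp7b1, an oxysterol hydroxylase, was also lower in females (-2.27 and -3.46). Of 6 targets of estrogen receptor alpha, 3 were tested. Of these 3, 1 passed as higher in females in B6 and 3 in C3, and 1 passed as higher in C3 than in B6 females and 0 in males. Ccnd1, cyclin D1, was higher in females of both strains (2.45 ± 0.25 and 2.20 ± 0.25, adjusted p = 6.19e-07 and 2.77e-06, edgeR). Greb1, Pgr and Tff1, classical estrogen targets in other tissues, held at most 4 counts in any liver and were not tested.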

How the data were processed

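Total RNA libraries from 20 mouse livers were sequenced as stranded paired-end reads. The authors deposited raw counts per RefSeq gene, made by aligning the reads of both strains to mm9 with STAR 2.5.1b after Cutadapt 1.9.1 and counting with featureCounts of Subread 1.5.0-p1 (stranded; multimapping and multi-overlapping reads not counted). The authors also deposited TPM values, scaled by a gene length that is not given in the sources used here. No column was left out. The effect of sequence differences between the strains on alignment to mm9, and so on C3 against B6 values, was not measured. Groups, replicate numbers and pools came from the labels.

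Counts were filtered with filterByExpr, scaled by TMM and fitted with the quasi-likelihood test of edgeR 4.0.16 (R 4.3.3) as group and pool over all 20 libraries, with Benjamini-Hochberg adjustment over 13704 genes. CPM are TMM-normalized, and errors of log2 fold changes are SE. A gene was called at an adjusted p under 0.001 with an absolute log2 fold change over 0.5, the thresholds of the study. Total counts of 27370921 to 46835745 make 3 counts worth 0.064 to 0.11 CPM. The p-values treat mice as replicates. The scripts were tested on simulated data. Alternatives were DESeq2 1.42.0, limma 3.58.1 on log2(TPM + 1) and log2(TPM + 0.1), 2 other normalizations, no filter on low counts, no pool term, a replicate block, only the 2 groups compared, and each liver left out.

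Named were the 9 genes, 7 preset target genes, up to 2 called genes in each direction per list (named here for the receptor, partner and target lists and, in the closing section, the clock and marker lists) and comparison, and the 2 genes most like each of the 9. The genes, lists and tests were chosen with earlier results of these data known. Replicate numbers were not treated as pairs, because the labels give no pairing. The correlation of deviations of same-numbered mice from their group means was over 0.1 in at most 3 of the 5 pairs of any comparison. With the pool removed as well it ran from -0.20 to 0.32. Before the pool was removed, the correlation was positive in pairs that shared a pool and negative in all others. These values cannot decide whether mice were paired, since they followed the pool and took both signs once it was removed.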

Additional observations from a re-analysis of the deposited data

Results flagged for a closer look

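Among the 36 sets of 5 livers formed by the 9 genes and 4 groups, 4 held a liver farther from the others than Dixon's critical value of 0.71 allows, where chance alone gives about 1 in 20. Nr1i2 was 58.96 CPM in C3 F liver 3 against 66.6 to 69.7 CPM in the other C3 F livers. Esr1 was 50.8 CPM in C3 F liver 2 against 56.8 to 59.4 CPM in the rest of its group, and 21.1 CPM in C3 M liver 3 against 28.4 to 30.9 CPM. Rxra was 257 CPM in B6 F liver 4 against 298 to 309 CPM. The Nr1i2 and C3 F Esr1 livers were in pool 3 and the others in pool 1. The C3 M liver lowest in Esr1 bears on the strain difference among males, which was 0.58 with it and 0.67 without it on the log2 scale.

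An interaction of sex and strain was called in the edgeR fit for 4 of the listed target genes. These were 3 of the 25 targets of PPARalpha and 1 of the 13 of LXR, where 0.401% of all genes tested were called. The log2 interaction value was 3.71 for Cyp4a10, 3.41 for Vnn1, 2.14 for Cd36 and -1.80 for Lpl. In F livers Cyp4a10 was 607 to 726 CPM in B6 and 231 to 484 CPM in C3, and in M livers it was 65.2 to 527 CPM in B6 and 4.52 to 18.3 CPM in C3. Cd36 was 94.9 to 189 CPM in B6 F, 95.8 to 180 CPM in B6 M, 76.9 to 119 CPM in C3 F and 17.5 to 31.0 CPM in C3 M. The C3 M livers were lowest for both genes and highest for Lpl. The log2 fold change of F against M in B6 and C3 was 1.34 and 5.05 for Cyp4a10, 0.24 and 3.65 for Vnn1, -0.10 and 2.04 for Cd36 and -0.44 and -2.25 for Lpl.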

How the results depend on the processing

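Across the 9 genes no value past a threshold changed sign under any setting. Of the 14 differences that passed at 0.05, those of Esr1 (both sex comparisons and the strain comparison in males), Hnf4a in C3 and Ahr in females passed under every alternative and without any liver. The others lost the threshold in 26 of the 126 alternative values and 33 of the 140 leave-one-out values of all 14, most often without the pool term. Without the pool term 1, 2 and 1 of the 9 genes passed in F against M in B6, F against M in C3 and C3 against B6 in females, and 421, 482 and 815 of all genes were called there, with 20 in the interaction. With only the 2 groups compared, 2 genes passed in the strain comparison of each sex, and 625 of all genes were called in F against M in C3. In C3 against B6 in males, 2 passed with limma on log2(TPM + 1) or log2(TPM + 0.1) and 3 with upper-quartile normalization, and 1 was called with DESeq2 or with no filter, as was 1 in females with DESeq2, while DESeq2 called 180 genes in the interaction. The cause was not tested.

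Leaving out each liver gave 2 to 4 of the 9 genes at 0.05 in F against M in B6 (lowest without B6 F liver 3), 2 to 6 in C3 against B6 in females (3 without B6 F liver 2, 3 or 5 or C3 F liver 2, and 2 without C3 F liver 3 or 5) and 1 to 2 in males (2 without B6 M liver 2 or C3 M liver 3). It gave 1 to 2 called in F against M in C3 (2 without C3 F liver 2) and 0 to 1 in C3 against B6 in males. For all genes the interaction called 32 to 55 (32, 34 and 33 without B6 M liver 1, C3 F liver 1 and C3 M liver 4).

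With the replicate number as a block, 2 of the 9 genes passed in C3 against B6 in males, where Nr1i2 passed as well (adjusted p = 0.0276, edgeR), and 5 in F against M in C3, where Nr1i3 passed as well (adjusted p = 0.0332, edgeR), and the calls over all genes were 845, 933, 1222, 1263 and 40. No pairing of the mice is given by the labels. The correlation of deviations of same-numbered mice ran from -0.46 to 0.63, and from -0.20 to 0.32 with the pool removed.

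On log2(TPM + 0.1) the median of all genes in F against M moved to 0.11 in B6 and 0.12 in C3, and the share of calls higher in females rose from 50.9% to 71.6% and from 59.6% to 77.4%. With upper-quartile normalization it was 64.3% and 69.96%. Among differences that had not passed, the sign changed in 17 of 270 alternative values and 23 of 400 leave-one-out values, where the edgeR value was at most 0.10 in size. The lowest count of any of the 9 genes in a liver was 475.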

Other observations

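Of 14 clock genes, 3 rose and 5 fell in F against M in B6, and 6 fell and none rose in C3, with median log2 fold changes of -0.21 and -0.34. Bhlhe41, a clock repressor, was 0.134 to 0.364 CPM in C3 F against 0.737 to 2.31 CPM in C3 M (log2 -2.40 ± 0.46, adjusted p = 0.000586, edgeR). In C3 against B6, 1 rose and 1 fell in females, and 3 rose and none fell in males. Of all genes tested, 16.2% rose and 18.4% fell in females of B6, and 20.1% and 19.9% in females of C3. In C3 against B6, 17.7% rose and 15.3% fell in females, and 17% and 17.5% in males.

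The same shares of all genes tested apply to the counts of rising and falling markers below. In C3 against B6, 15.3% of all genes fell in females and 17.5% in males. The cell type lists held these calls. Among Kupffer cell markers, Vsig4 was higher in females of both strains (log2 0.75 and 0.51), while Adgre1 (-0.94 and -0.91) and Csf1r (-0.91 and -0.60) were lower in C3 of both sexes, and 4 of 6 markers fell in C3 in each sex. The endothelial marker Lyve1 was lower in C3 females (-0.98), and 3 of 6 markers fell in each sex. Stellate markers fell in C3 in 4 of 6 genes in females and 5 in males. The cholangiocyte marker Sox9 was lower in females of both strains (-1.42 and -0.84) and higher in C3 than in B6 females (0.85). Over the 5 cholangiocyte markers tested in F against M, the median was 0.04 in B6, with none higher and 1 lower, and 0.45 in C3, with 2 higher and 1 lower. Lymphocyte markers summed to 1.41 to 2.79 CPM in C3 F and 0.348 to 0.642 CPM in C3 M, and all 4 tested were higher in C3 females than in C3 males. Of 8 hepatocyte markers, Serpina1c was lower in females of both strains (-0.81 and -0.56) and Cyp2e1 was lower in C3 than in B6 females (-0.53), while Apoa1 was higher in C3 of both sexes (0.84 and 0.71). Of the 8, 1 rose and 3 fell in F against M in B6 and 1 rose and 5 fell in C3, and 2 rose and 1 fell in C3 against B6 in females and 3 rose and none fell in males.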
